A study of Mus musculus with 6 samples.

Results

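The genes described here encode proteins that make up, hold or receive the TGF-beta signal, with 2 follistatin-like proteins. They are the ligands Tgfb1, Tgfb2 and Tgfb3, the receptors Tgfbr1 and Tgfbr2, the latent binding proteins Ltbp1, Ltbp2 and Ltbp3, and Fstl1 and Fstl3. These 10 genes were chosen with earlier results of these data known. Their probe sets were taken by gene symbol alone: every probe set annotated to 1 of these 10 symbols was kept, dim ones included. That gave 10 of the 18193 genes that the annotation names, and 24 of the 45101 probe sets of the table. A probe set is a group of array probes that measures 1 transcript or part of it.

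The study compared the apex of 3 hearts with alpha MHC Cre (aMHC_Cre 1 to 3) with the apex of 3 hearts with no Cre (no_Cre 1 to 3), with 1 heart and 1 Affymetrix array per sample. All 6 animals were male mice aged 6 to 7 weeks, and all carried Fog2flox/delta, 1 floxed and 1 deleted allele of Fog2, which has the official symbol Zfpm2 and encodes a cofactor of GATA transcription factors. The alpha MHC promoter drives Cre recombinase in cardiomyocytes, so the floxed allele can be removed there and stays in the other cell types of the apex. Hearts with no Cre were not wild type. Since every heart with Cre also had the floxed allele, effects of the recombinase and of losing Fog2 cannot be told apart. The comparison asks how transcripts of the adult heart differ when cardiomyocyte Fog2 can be deleted.

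TGF-beta is made as a dimer that stays bound to its own propeptide, and this latent complex is tied to the extracellular matrix by latent TGF-beta binding proteins. Once released by integrins or proteases, the ligand binds the type II receptor, which phosphorylates the type I receptor, and the signal passes to Smad2 and Smad3. In the heart the pathway is best known for driving fibroblasts to make collagen and other matrix proteins. Fstl1 and Fstl3 are secreted glycoproteins with a follistatin domain. Fstl3 binds and blocks activins and myostatin, and Fstl1 is secreted by several cell types of the heart.

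All values are log2 signals as deposited, and each difference is the mean of hearts with Cre minus the mean of hearts with no Cre. A probe set was tested if its mean over the 6 arrays was at least 5.16, the level that leaves out the dimmest 40%, and was called at a limma adjusted p under 0.05 over all 27022 tested probe sets. A gene takes its brightest tested probe set. Array medians lay between 5.71 and 5.81, and pairs of arrays correlated at 0.980 to 0.987 within groups and at 0.964 to 0.973 between groups, over probe sets, which are not replicates. The 7 cardiomyocyte markers were the tissue check. They were bright in all hearts, with means of 13.85 with Cre and 13.88 with no Cre for Myh6, the alpha myosin heavy chain gene, and none of them passed (median difference -0.02, 0 with an unadjusted p under 0.05). Myh6 lay near the array maxima of 13.97 to 14.00, where differences may be understated. Dimmer probe sets of these genes differed in both directions, among them by -0.46 for Tnnt2 (adjusted p 0.11), -0.37 for Myh6 (0.35) and 0.26 for Ryr2 (0.32). Of the 2 Zfpm2 probe sets, 1 read 5.46, 5.61 and 5.65 with Cre against 6.34, 6.40 and 6.65 with no Cre, and the other read 10.71, 10.48 and 10.50 with Cre against 8.86, 8.83 and 8.95 with no Cre. They moved in opposite directions, and without knowing which exons each one covers neither checks the deletion. The 3' minus 5' signal of Actb, a measure of RNA integrity, was 0.27 ± 0.02 with Cre and 0.35 ± 0.06 with no Cre (SD, n = 3 each), and that of Gapdh was -0.06 ± 0.01 with Cre and -0.11 ± 0.03 with no Cre. Neither overlapped between groups, and their part in the results below was not tested.

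In hearts with Cre, the follistatin-like gene Fstl1 and the latent binding protein gene Ltbp3 rose, while no ligand or receptor gene passed the test. Of the 10 members, 8 had a tested probe set, and 2 of these 8 genes were called higher and 0 lower. Among all 13062 genes tested, 4.2% were called higher and 2.04% lower. Counted as probe sets, 15 of 24 were tested, and 4 were called higher (both of Fstl1 and 2 of Ltbp3) and 0 lower, against 3.43% higher and 1.79% lower among all tested probe sets. Since the members were chosen with earlier results of these data known, these counts are not independent evidence of an excess over those shares. The dim gene Fstl3 also stood apart, with a difference of 1.96, in a fit that kept all probe sets. These are whole-tissue signals, in which more cells of a type and more RNA per cell cannot be told apart.

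**Figure D1:**
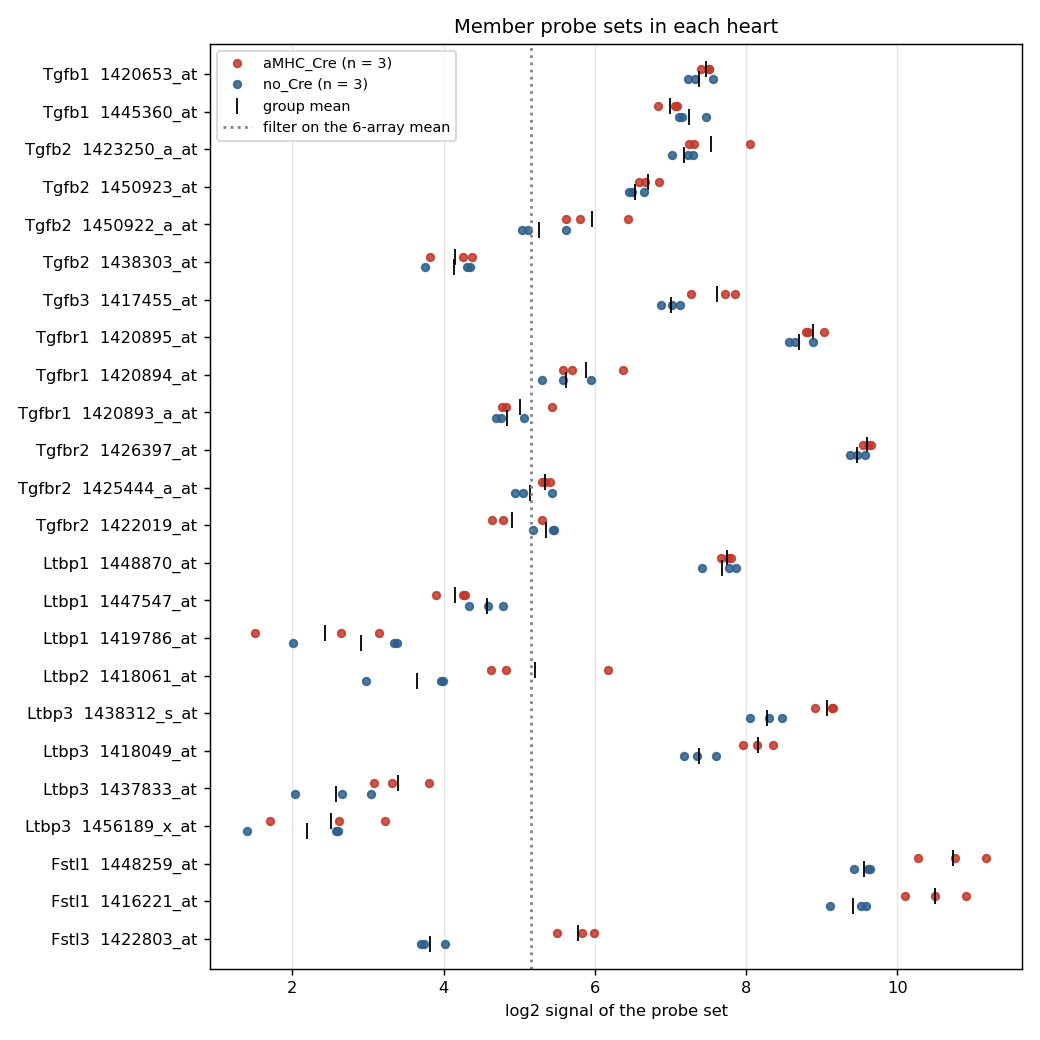
log2 signal (x axis) of the 24 member probe sets (y axis) in each heart, with hearts with alpha MHC Cre in red above hearts with no Cre in blue, the group mean as a tick, and the filter on the 6-array mean (5.16) as a dotted line. The groups lie apart, with Cre higher, for both probe sets of Fstl1, the 2 bright ones of Ltbp3 and those of Fstl3, Ltbp2 and Tgfb3. The same holds by small margins for a Tgfb2 probe set and a dim Ltbp3 probe set. They lie apart with Cre lower for a Tgfb1 probe set and a dim Ltbp1 probe set, and overlap for most ligand and receptor probe sets.

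The promoter windows of the 3 members with a called probe set are shown because these are the genes whose transcripts differed and because Fog2 acts through GATA factors, which bind DNA. Each window holds 300 bases, from 250 before to 50 after the RefSeq gene start on build GRCm38.p6, written 5′ to 3′ on the strand of the gene. Capitals mark matches, on either strand, to the GATA motif (GATAA), a Smad motif (CAGACA), the GC box (GGGCGG) and the TATA motif (TATAAA).
Fstl1, chr16:37776805-37777104, plus strand: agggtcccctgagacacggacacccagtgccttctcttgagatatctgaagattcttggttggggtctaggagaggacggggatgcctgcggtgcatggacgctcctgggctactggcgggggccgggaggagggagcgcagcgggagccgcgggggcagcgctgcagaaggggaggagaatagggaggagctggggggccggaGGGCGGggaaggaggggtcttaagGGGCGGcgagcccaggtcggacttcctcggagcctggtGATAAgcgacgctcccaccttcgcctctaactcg
Ltbp3, chr19:5740650-5740949, plus strand: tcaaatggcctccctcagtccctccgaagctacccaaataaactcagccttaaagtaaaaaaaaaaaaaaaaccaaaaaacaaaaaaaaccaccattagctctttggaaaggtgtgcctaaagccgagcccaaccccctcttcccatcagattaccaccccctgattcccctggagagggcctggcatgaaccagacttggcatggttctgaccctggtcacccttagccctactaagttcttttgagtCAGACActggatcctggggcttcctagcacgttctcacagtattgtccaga
Fstl3, chr10:79777024-79777323, plus strand: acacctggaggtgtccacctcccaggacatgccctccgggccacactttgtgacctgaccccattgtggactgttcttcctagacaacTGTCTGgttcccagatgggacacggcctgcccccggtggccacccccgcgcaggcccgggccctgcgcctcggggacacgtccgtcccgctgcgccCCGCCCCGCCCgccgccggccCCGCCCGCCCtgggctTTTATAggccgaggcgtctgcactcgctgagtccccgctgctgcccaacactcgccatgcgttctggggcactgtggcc
The Fstl1 window held 1 GATA match, after the gene start, and 2 GC boxes. The Ltbp3 window held 1 Smad match at the start and no GC box, and 48.0% of its bases were G or C, against 66.7% for Fstl1, 70.7% for Fstl3 and a median of 52.7% over all windows. The Fstl3 window held 1 Smad match, 4 GC boxes, some of which overlap, and 1 TATA match, read on the opposite strand. The table held 11 windows for 9 members (all but Tgfb3), of which 3 had a GATA match, 5 a Smad match, 5 a GC box and 2 a TATA match. Among all 32851 windows of the same length, 25.4% had a GATA match, 21.0% a Smad match, 35.7% a GC box and 13.6% a TATA match. A match describes letters only.

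Tgfb1, the ligand most studied in fibrosis, has 2 tested probe sets, and neither passed. The brighter one read 7.50, 7.41 and 7.51 in hearts with Cre, against 7.33, 7.23 and 7.57 in hearts with no Cre. The groups overlapped, and the difference of 0.10 had a 95% interval of -0.19 to 0.39 (adjusted p 0.77). The second probe set read 7.08, 6.83 and 7.06 with Cre and 7.15, 7.47 and 7.12 with no Cre. It was lower in every heart with Cre, but its difference of -0.26 did not pass (adjusted p 0.39), so the 2 probe sets of this gene differ in sign and neither gives a called change.

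Tgfb2, a ligand known for its role in the formation of heart valves and septa, has 4 probe sets, of which 3 were tested. The brightest read 7.31, 7.25 and 8.05 with Cre and 7.30, 7.02 and 7.23 with no Cre. Only aMHC_Cre 3 was clearly higher, and the difference of 0.36 ± 0.21 (SE, adjusted p 0.44) was 0.10 without that heart. A second tested probe set read 5.62, 5.81 and 6.44 with Cre against 5.12, 5.04 and 5.61 with no Cre. Its groups did not overlap, by a margin of about 0.01, and the difference of 0.70 ± 0.23 (SE) did not pass (adjusted p 0.13) and was 0.46 without aMHC_Cre 3, though it passed with the replicate number as a block (0.043). The third differed by 0.17 (adjusted p 0.56), and the dim one read 3.75 to 4.37 in all hearts.

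Tgfb3, the ligand best known from palate development and also made by cardiac fibroblasts, was the ligand nearest to a call. Its only probe set read 7.27, 7.72 and 7.85 with Cre, against 6.87, 7.03 and 7.12 with no Cre. Every heart with Cre lay above every heart with no Cre, as for 11.4% of all tested probe sets. The difference of 0.61 ± 0.16 (SE, 95% interval 0.24 to 0.98) had an adjusted p of 0.073. It passed in 5 of 16 other settings, among them the one without aMHC_Cre 1 (difference 0.78, adjusted p 0.025), and leaving out any other single heart gave an adjusted p of 0.10 to 0.24.

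Neither receptor gene passed the test. Tgfbr1, the type I receptor kinase also called ALK5, read 9.03, 8.82 and 8.80 with Cre and 8.64, 8.56 and 8.88 with no Cre at its brightest probe set. The groups overlapped, with no_Cre 3 above 2 of the hearts with Cre, and the difference was 0.19 with a 95% interval of -0.11 to 0.49 (adjusted p 0.54). Tgfbr2, the type II receptor that binds the ligand first, read 9.65, 9.54 and 9.61 with Cre and 9.46, 9.37 and 9.57 with no Cre. The difference was 0.13 with an interval of -0.12 to 0.39 (adjusted p 0.62). The second tested probe sets differed by 0.27 for Tgfbr1 (adjusted p 0.63) and by 0.21 for Tgfbr2 (0.53), and the dim ones by 0.17 and by -0.45. That second Tgfbr1 probe set differed by 0.024 without aMHC_Cre 1 and by 0.44 without no_Cre 3.

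Over the ligands and receptors together, 0 of 10 tested probe sets passed in limma, and 2 had an unadjusted p under 0.05, those of Tgfb3 (0.0049) and of Tgfb2 (0.013). In hearts with Cre, 2 of these 10 lay wholly above and 1 wholly below the hearts with no Cre, against 11.4% and 12.1% of all tested probe sets.

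**Figure D2:**
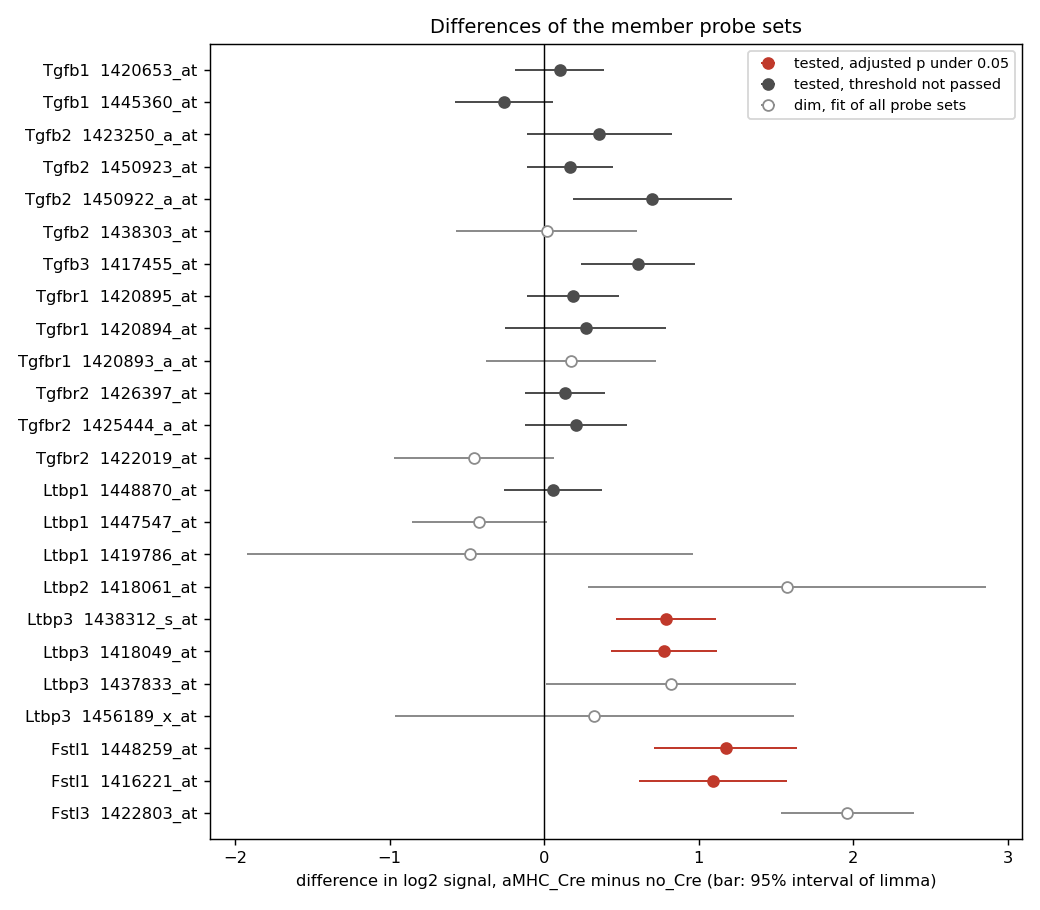
Difference in log2 signal, hearts with alpha MHC Cre minus hearts with no Cre (x axis), of each member probe set (y axis), with bars for the 95% interval of limma (3 hearts per group). The called probe sets (red) are the 2 of Fstl1 at 1.18 and 1.09 and 2 of Ltbp3 at 0.79 and 0.78, and open circles are dim probe sets, whose intervals come from the fit of all probe sets.

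The latent binding proteins differed among themselves. Ltbp3, which is secreted with the latent ligand and is known from studies of bone and lung in mice, read 9.13, 8.91 and 9.15 with Cre, against 8.47, 8.05 and 8.31 with no Cre, at its brightest probe set. The lowest heart with Cre lay 0.43 above the highest with no Cre, and the gene rose by 0.79 ± 0.14 (SE), or 1.73-fold (adjusted p 0.015). A second tested probe set read 7.96, 8.14 and 8.35 with Cre and 7.60, 7.18 and 7.35 with no Cre. It gave nearly the same difference, 0.78 ± 0.15 (SE, adjusted p 0.021), a call that was lost without aMHC_Cre 2, aMHC_Cre 3, no_Cre 2 or no_Cre 3 (adjusted p 0.060 to 0.087) and with the replicate number as a block (0.068). The name of the brightest probe set ends in _s_at, a suffix for probes that may match more than 1 transcript, and that of the second does not.

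The Ltbp3 call was narrow: without aMHC_Cre 1 the adjusted p was 0.057 and without aMHC_Cre 3 it was 0.052, with differences of 0.75 and 0.74. Without the filter on dim probe sets it was 0.12. The 2 dim probe sets of Ltbp3 differed by 0.82 and 0.33 and neither passed when all probe sets were fitted (adjusted p 0.39 and 0.85).

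Ltbp1, which binds the latent complex to fibrillin and fibronectin, read 7.67, 7.80 and 7.76 with Cre and 7.77, 7.42 and 7.86 with no Cre. The hearts with Cre lay within the range of the others, and the difference was 0.06 with a 95% interval of -0.26 to 0.38 (adjusted p 0.89). Its 2 dim probe sets differed by -0.42 and -0.48 (adjusted p 0.42 and 0.79 when all probe sets were fitted).

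Ltbp2, a relative that is found on microfibrils and does not bind latent TGF-beta, was measured only by a dim probe set. It read 4.63, 4.83 and 6.17 with Cre and 2.97, 3.97 and 3.99 with no Cre. All hearts with Cre were higher, aMHC_Cre 3 most of all, and the difference of 1.57 ± 0.51 (SE) did not pass when all probe sets were fitted (adjusted p 0.31). Without aMHC_Cre 3 it was 1.09, and with 16 added to the unlogged signal it was 0.91, so its size depends on 1 heart and on how low signals are scaled.

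Fstl1 gave the largest difference of the tested members. Its brighter probe set read 10.28, 10.76 and 11.16 with Cre, against 9.61, 9.42 and 9.64 with no Cre. The hearts with Cre spanned 0.89 and the others 0.22, and even the lowest heart with Cre, aMHC_Cre 1, was above all hearts with no Cre. The gene rose by 1.18 ± 0.21 (SE) on the log2 scale, or 2.26-fold (adjusted p 0.012). The other probe set read 10.10, 10.50 and 10.90 with Cre and 9.59, 9.10 and 9.52 with no Cre, with a difference of 1.09 ± 0.21 (SE, adjusted p 0.019), and both keep the same order of the 3 hearts with Cre. Without aMHC_Cre 2 the brighter probe set had an adjusted p of 0.064 at a difference of 1.16, and without the filter on dim probe sets 0.14. The other probe set lost its call without aMHC_Cre 2 (0.086), without no_Cre 2 (0.058) and without the filter (0.18).

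Fstl3, with a mean of 4.80 over the 6 arrays, fell below the filter. Its probe set read 5.50, 5.99 and 5.84 with Cre, against 4.01, 3.70 and 3.74 with no Cre. The groups were 1.49 apart at their nearest hearts. Fitted with all 45037 probe sets, of which 0.502% were called higher and 0.109% lower, the difference of 1.96 ± 0.17 (SE) had an adjusted p of 0.027, and no other member probe set passed there. Omitting any 1 of the 6 hearts ended the call, at an adjusted p of 0.070 to 0.12 and differences of 1.85 to 2.10. Of the 9 dim member probe sets, 3 had hearts with Cre wholly above and 1 wholly below the hearts with no Cre, against 9.44% and 10% of all probe sets. With 16 added to the unlogged signal the difference was 1.24, and with 64 it was 0.61, so its size depends on how low signals are scaled, while its direction was the same in each.

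**Figure D3:**
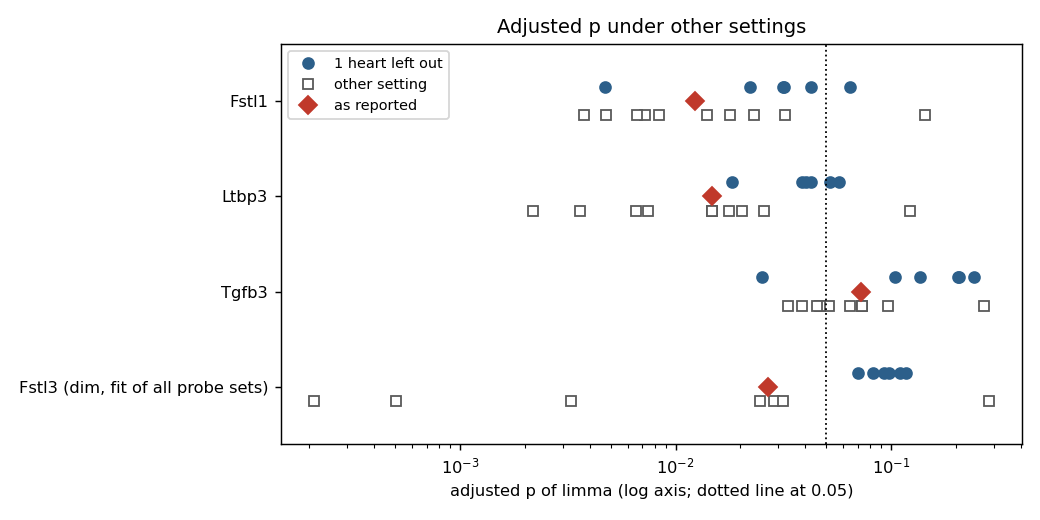
limma adjusted p on a log axis (x axis) for 4 members (y axis), as reported (red diamond), with 1 heart left out (blue circles) and under other settings (open squares), with the threshold of 0.05 dotted. Fstl1 and Ltbp3 lie mostly left of the line, Tgfb3 mostly right of it, and all 6 values of Fstl3 with 1 heart left out lie right of it, from 0.070 to 0.12.

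Within the hearts with Cre, several member probe sets had the same highest heart. In all 6 tested member probe sets whose groups did not overlap with hearts with Cre higher (those of Fstl1, Ltbp3, Tgfb3 and 1 of Tgfb2), aMHC_Cre 3 was the highest heart. Among all tested probe sets of that kind, 42.6% were highest in aMHC_Cre 3, 39.6% in aMHC_Cre 1 and 17.8% in aMHC_Cre 2. Not all members shared this: Fstl3 was highest in aMHC_Cre 2, the brightest probe sets of Tgfbr1 and Tgfbr2 in aMHC_Cre 1 and that of Ltbp1 in aMHC_Cre 2. At the brightest probe set of Ltbp3, aMHC_Cre 3 (9.15) and aMHC_Cre 1 (9.13) were nearly equal. Several of these probe sets measure the same gene, so they are not independent, and no test was made.

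By the distance between centred log2 values over the 6 arrays, the tested genes most like Fstl1 were Gask1b (distance 0.24), Fn1 (0.27), which encodes the matrix protein fibronectin, and Csrp2 (0.28), a LIM domain protein. All 3 rose with Cre, by 1.18 for Gask1b, 1.05 for Fn1 and 1.19 for Csrp2, and highest in aMHC_Cre 3. Their choice by closeness to Fstl1 largely fixes this outcome, so it is no separate result. The genes most like Tgfb1 were Gpx4, Tyk2 and Dbi, at distances of 0.03 to 0.05 and differences of 0.07 to 0.12. The likeness is a description of 6 arrays in 2 groups.

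Among the other receptors of the family and their co-receptors, 1 of 10 genes rose and 0 fell, against 4.2% and 2.04% of all genes tested. The median difference was 0.07, against -0.01 over all genes tested. Of the 10 differences 5 were positive and 5 negative, and 3 had an unadjusted p under 0.05 in limma. The largest positive one, of the co-receptor gene Eng, was 0.49 and did not pass (adjusted p 0.058). The gene that rose was Acvr1, the type I receptor ALK2, which binds bone morphogenetic proteins. Acvr1 read 8.82, 8.65 and 8.79 with Cre and 8.24, 8.24 and 8.36 with no Cre, and rose by 0.47 ± 0.11 (SE, adjusted p 0.047). Omitting any 1 heart ended its call (adjusted p 0.075 to 0.15), and a second probe set differed by 0.40 (adjusted p 0.10).

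Among other genes of latency, matrix deposition and activation, 3 of 11 rose and 0 fell, against 4.2% and 2.04% of all genes tested. Their median was 0.16. Itgb8, the integrin chain that pairs with αv and releases TGF-beta from its latent complex, read 6.45, 6.46 and 6.04 with Cre and 4.89, 4.72 and 5.09 with no Cre. It rose by 1.42 ± 0.16 (SE, adjusted p 0.0014) and passed in the 15 other settings in which it was tested. All its hearts with no Cre lay below the filter level (mean 4.90), so Itgb8 was tested only through its signal with Cre. Neither its place in the count nor its passing in settings that keep this filter is independent of that. With 64 added to the unlogged signal the difference was 0.62, so its size depends on how low signals are scaled. Emilin1, an elastic fibre protein that limits the processing of the TGF-beta precursor, rose by 0.87 ± 0.15 (adjusted p 0.013). Ltbp4, the fourth latent binding protein, read 10.29, 10.48 and 10.53 with Cre and 9.63, 9.90 and 9.99 with no Cre, a rise of 0.59 ± 0.14 (adjusted p 0.040). Of single hearts left out, only the omission of no_Cre 3 kept the call of Ltbp4 (adjusted p 0.049), and the others gave 0.061 to 0.15. Itgb6, another activating integrin chain, differed by -0.56 (adjusted p 0.30), and passed as lower without aMHC_Cre 3 (difference -0.88, adjusted p 0.034).

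Of 16 Smads and their regulators, 1 rose and 0 fell, against 4.2% and 2.04% of all genes tested, with a median of 0.17. The gene that rose was Bambi, a receptor-like protein without a kinase domain that dampens TGF-beta signalling. Bambi read 11.24, 11.20 and 11.12 with Cre and 9.47, 9.59 and 8.50 with no Cre. The hearts with Cre lay close together and no_Cre 3 was the lowest of the others. It rose by 2.00 ± 0.25 (SE, adjusted p 0.0027), and by 1.65 without no_Cre 3. The Smads that carry the signal did not pass, with differences of 0.14 for Smad2, 0.26 for Smad3 and -0.15 for Smad4. Over the 16 genes, 12 differences were positive and 4 negative, and 5 genes had an unadjusted p under 0.05 in limma. Among those that did not pass, Pmepa1 differed by 0.76 (adjusted p 0.087) and Smad7 by 0.51 (0.070).

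Of 6 tested genes of activin, myostatin and follistatin, 0 passed in limma, 1 had an unadjusted p under 0.05, and the median was -0.03. Inhba, the activin A subunit and a target of Fstl3 binding, differed by 0.63 ± 0.15 (SE, adjusted p 0.052) and passed in 6 other settings, while Igsf1 differed by -0.69 ± 0.43 (adjusted p 0.47). The Igsf1 difference was -1.22 without no_Cre 2 (adjusted p 0.060) and -0.20 without no_Cre 3 (0.82).

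Of the genes listed as TGF-beta targets, 11 of 14 rose and 0 fell, against 4.2% and 2.04% of all genes tested, with a median of 1.13. Several of these genes were already known to be higher in these hearts when the list was drawn up, so the count and the median are not independent evidence. Comp, which was among those called, had a mean with no Cre of 5.14, below the filter level, and was tested only through its signal with Cre. Timp1, an inhibitor of matrix metalloproteinases, read 6.99, 7.38 and 7.56 with Cre and 5.78, 5.13 and 5.79 with no Cre and rose by 1.75 ± 0.21 (SE, adjusted p 0.0021), a difference that was 1.00 with 64 added to the unlogged signal. The collagen chains Col1a1 and Col3a1 rose by 1.41 ± 0.21 and 1.35 ± 0.21, and Postn, the matricellular protein periostin, by 1.36 ± 0.19. These 4 calls held whichever heart was left out. Without the filter on dim probe sets, 1 of the 14 genes passed. Tgfbi differed by 0.02 and Acta2, a mark of myofibroblasts and smooth muscle, by 0.80 (adjusted p 0.20). The summed signal of the 14 genes was 15328, 19023 and 21441 in aMHC_Cre 1, 2 and 3, against 7870 to 9532 in hearts with no Cre, the same order of the hearts with Cre as for Fstl1.

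**Figure D4:**
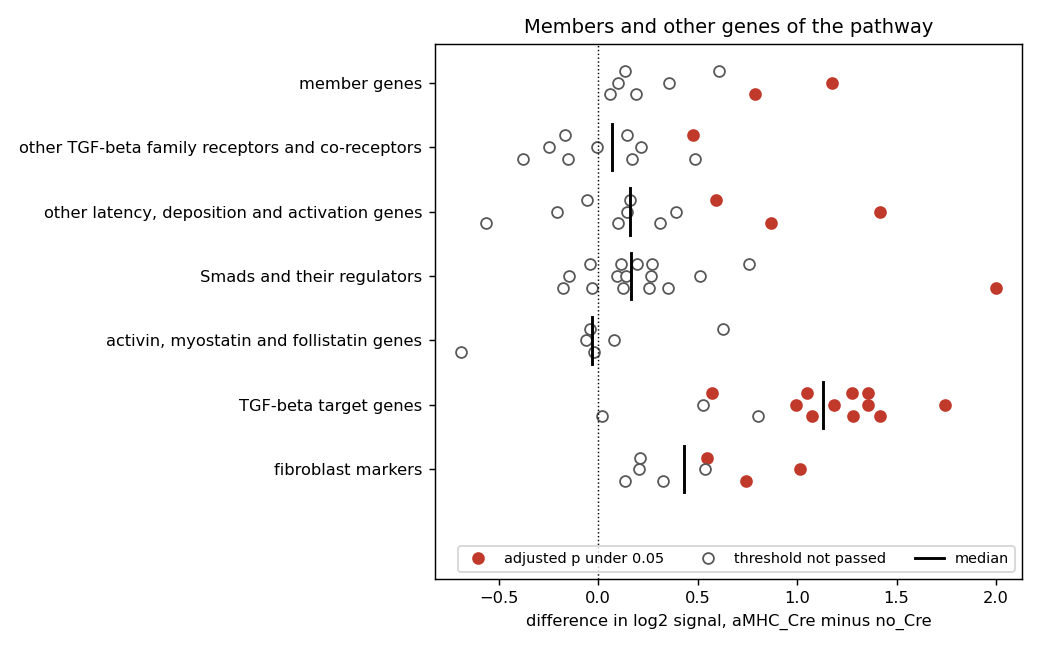
Difference in log2 signal, hearts with alpha MHC Cre minus hearts with no Cre (x axis), of the tested member genes and of the genes of each list (y axis), filled red where the adjusted p is under 0.05, with the median of each list as a bar. The target genes, a list drawn up with some of these values known, have 11 of 14 red points and a median of 1.13. The fibroblast markers have 3 of 8 and 0.43, and the activin list has 0 of 6. Among all genes tested, 4.2% were called higher and 2.04% lower.

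Fibroblast markers were higher in part. Of 8, 3 rose (Lum by 0.74, Dpt by 0.55 and Mfap5 by 1.02) and 0 fell, with a median of 0.43. Among all genes tested, 4.2% were called higher and 2.04% lower. Their summed signal was 15494, 15371 and 16455 in aMHC_Cre 1, 2 and 3, and 10628 to 12689 in hearts with no Cre, without overlap. The difference of the sums was 0.45 on the log2 scale. Dcn, the brightest of the list, weighs most in the sum, and it differed by 0.33 (adjusted p 0.24). Pdgfra, a defining fibroblast receptor, differed by 0.21 (adjusted p 0.43). Tcf21 differed by 0.54 (adjusted p 0.15), Pi16 by 0.21 (0.63) and Ddr2 by 0.13 (0.70), and all 8 differences were positive. The part of fibroblast content in the rise of Fstl1, Ltbp3 and the target genes was not tested.

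Markers of other cell types did not pass, with 1 exception. None of 7 endothelial, 6 smooth muscle and pericyte, 7 macrophage, 3 platelet and 1 lymphocyte markers passed in limma, 1 of them (endothelial) with an unadjusted p under 0.05, and the list medians were 0.12, 0.01, 0.11, 0.04 and 0.10. Of 5 epicardial and mesothelial markers only Upk1b was bright enough to be tested. It rose by 0.63 ± 0.15 (SE, adjusted p 0.041), with a signal of 236 to 293 in hearts with Cre and 144 to 193 in hearts with no Cre, and its part in the results was not tested.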

How the data were processed

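RNA of 6 heart apices was measured on 1 Affymetrix array each. The authors deposited log2 signals of probe sets, which PLIER made per the submitters' processing notes. The sources used here do not give its settings or whether arrays were normalized to each other, and base 2 is inferred from maxima of 13.97 to 14.00. No columns were left unused (0). The members and lists were chosen with earlier results of these data known.

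Control probe sets (64) and the dimmest 40% of the others (18015 of 45037) were left out. Since array medians differed by no more than 0.1, nothing further was normalized. The test was the two-sided moderated test of limma 3.58.1 (R 4.3.3) without covariates, with Benjamini-Hochberg adjustment over 27022 probe sets and a threshold of 0.05. Dim member probe sets take their values from the same fit of all 45037. Genes were named by the platform annotation where it gave 1 symbol (34945 probe sets; 932 had several and 9160 none). RefSeq (GRCm38.p6) held the Entrez numbers of 34741, and 0 symbols changed.

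The text names all members. Of each list it names genes past the threshold, up to 4 by size, or if none passes the 2 with the largest differences, and 3 genes most like Fstl1 and Tgfb1 by Euclidean distance. Other genes were named after their values were seen: Acvr2b, Eng, Itgb6, Smad2, Smad3, Smad4, Smad7, Pmepa1, Tgfbi, Acta2, Bgn, Comp and the markers. Of the listed genes Lrrc32, Fbn1, Mstn, Gdf15, Gp1ba and others were not used here, and Fbn2, Fstl4, Fstl5, Cnn1, Gp9, Wt1, Upk3b, Msln, Krt19, Cd3d, Cd79a and Cd79b were too dim. Promoter windows came from RefSeq. Precision is limited by 3 arrays per group. The procedure was tested on simulated data. Alternatives were quantile normalization, median centring, other filters, variance settings, weights per array, a block for the replicate number, 16 or 64 added to the unlogged signal, means over probe sets and leaving out each heart. Those of the dim probe sets, which combine no filter with another choice, were chosen after seeing the data.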

Additional observations from a re-analysis of the deposited data

How the results depend on the processing

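Differences of tested member probe sets and genes kept direction and side of the threshold in 208 of 230 alternatives, most of which concern genes or probe sets without a call. Of the rest, 14 lost a call, 6 gained one and 2 changed sign. The call held in 14 of 16 alternatives for Fstl1 and in 13 of 16 for Ltbp3. For their second probe sets it held in 12 of 15 and in 9 of 15. The sign changes were of Tgfb1 with the mean over its probe sets (-0.079), whose second probe set is lower, and of Ltbp1 without no_Cre 2 (-0.073, with a range of -0.073 to 0.15 over single hearts left out). The cause of the others was not tested. Quantile normalization and median centring moved the median of all probe sets from -0.02 to -0.03 and -0.02 and kept 2 member genes and 4 member probe sets called. Without the filter, which adds dim probe sets to the adjustment, 1 member gene and 1 member probe set passed (Fstl3 in place of Fstl1 and Ltbp3), with 1 of the latency list (Itgb8), 1 of the target list (Bgn), 0 of the receptor list and 0 of the Smad list. Leaving out 1 heart gave 1 to 2 member genes, 1 to 4 member probe sets, 0 dim member probe sets, 0 of the receptor list, 2 to 3 of the latency list, 1 to 3 of the Smad list, 0 to 1 of the activin list and 8 to 10 of the target list. The count of member probe sets was 1 without aMHC_Cre 2, 2 without aMHC_Cre 3 and 2 without no_Cre 2. The count of member genes was 1 without aMHC_Cre 2 or without aMHC_Cre 3. The Smad list had 3 without no_Cre 3, and the activin list had 1 without aMHC_Cre 1.

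Trend and robust variance, array weights, 16 added, 64 added and the 60% filter each gave 2 receptor genes and 1 activin gene (Inhba), and 2 Smad-list genes except for 3 with 64 added. Median centring gave 2 receptor genes, and the mean over probe sets 0. The labels do not say that replicate numbers pair the hearts, and same-numbered hearts correlated in their deviations at -0.06, 0.21 and -0.19. Of the other pairs, aMHC_Cre 1 with no_Cre 3 (0.27) and aMHC_Cre 3 with no_Cre 1 (0.19) were the highest. Whether hearts shared a batch was not tested. With the replicate block 2 member genes (Fstl1 and Ltbp3) and 4 member probe sets passed, 1 of Tgfb2 in place of 1 of Ltbp3, with 0 dim member probe sets (Fstl3, adjusted p 0.28) and 0 receptor genes, with 2 of the latency list, 1 of the Smad list, 0 of the activin list and 9 of the target list.

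Signs of dim probe sets near 0 were unsteady. The dim probe set of Tgfb2 was at -0.065 with array weights and from -0.17 to 0.18 with 1 heart left out (-0.093 without aMHC_Cre 1, -0.040 without aMHC_Cre 3, -0.17 without no_Cre 2). That of Tgfbr1 was at -0.035 without aMHC_Cre 1, in a range up to 0.29, and 1 of Ltbp3 at -0.027 without aMHC_Cre 1 and -0.072 without no_Cre 3, in a range up to 0.73.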
